A study of Mus musculus with 7 samples.

Results

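The 56 genes described here encode Wnt ligands, their receptors and co-receptors, secreted antagonists, R-spondins with their Lgr receptors, and the Axin, Lef1 and Tcf7 proteins. They are all genes of the deposited count table, 56 of 29777, whose symbols belong to those families, and the rule uses symbols alone. They comprise 19 ligands, 10 frizzled receptors, 5 co-receptors (Lrp5, Lrp6, Ror1, Ror2 and Ryk), 9 secreted antagonists, 7 R-spondins and Lgr receptors, and 6 Axin, Lef1 and Tcf7 factors.

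Messenger RNA was sequenced from GFP-positive cells that were sorted from cervical dorsal root ganglia of ICR mouse embryos at E11.5 and labelled TrkC neurons, the lineage of proprioceptive sensory neurons. Homozygotes (Runx3-P2-/-) carried the GFP allele on both copies of Runx3, a Runt-family transcription factor, and gave 4 libraries. Heterozygotes (Runx3-P2+/-) carried it on 1 copy beside an unmodified Runx3 and gave 3 libraries; embryos without the allele are not among the samples, so both genotypes carry it. According to the design text each genotype was a pool of 4, and nothing in the labels says whether libraries came from separate litters, so each p-value reflects the spread among the sequenced libraries alone.

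Wnts are lipid-modified secreted proteins that bind frizzled receptors. With the co-receptors Lrp5 and Lrp6 they stop the Axin-based complex from destroying beta-catenin, which then acts in the nucleus with Lef1 and the Tcf7 proteins. With Ror or Ryk receptors some Wnts act without beta-catenin, on cell polarity and axon growth. Sfrp proteins and Wif1 bind Wnts outside the cell, most Dickkopf proteins block Lrp5 and Lrp6, and R-spondins bound to Lgr receptors raise the amount of receptor at the cell surface. Around the dorsal root ganglia, Wnt1 and Wnt3a from the dorsal neural tube are known for driving the expansion of neural crest and the choice of the sensory lineage.

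Promoter windows from RefSeq (build GRCm38.p6, 300 bases from 250 before to 50 after a gene's annotated start) were at hand for 38 of the 56 genes, 46 windows in all. They were searched on both strands for the core Runt motif TGTGGT, since a Runt-family factor is the gene altered here. The motif lay in 3 of the 46 windows, 6.52%, against 16.8% of all 32851 windows. The 3 genes were Ror1, which encodes a Ror-family receptor tyrosine kinase that binds Wnts, Sfrp5, a secreted Wnt-binding antagonist, and Dkk1, an antagonist that binds Lrp5 and Lrp6. Their 250 bases before the start are printed because these are the members with that motif, which stands in capitals. In Dkk1 the motif is on the opposite strand and reads ACCACA as printed, and a TCF/LEF motif (CTTTGAA) is in capitals too. The windows are chr4:100095541-100095790 on the plus strand for Ror1, chr19:42202253-42202502 on the minus strand for Sfrp5 and chr19:30549497-30549746 on the minus strand for Dkk1.
Ror1: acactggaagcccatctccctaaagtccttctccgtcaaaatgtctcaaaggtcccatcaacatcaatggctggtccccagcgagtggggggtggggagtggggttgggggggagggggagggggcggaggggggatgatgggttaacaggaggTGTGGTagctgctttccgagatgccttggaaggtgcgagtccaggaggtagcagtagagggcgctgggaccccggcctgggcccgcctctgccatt
Sfrp5: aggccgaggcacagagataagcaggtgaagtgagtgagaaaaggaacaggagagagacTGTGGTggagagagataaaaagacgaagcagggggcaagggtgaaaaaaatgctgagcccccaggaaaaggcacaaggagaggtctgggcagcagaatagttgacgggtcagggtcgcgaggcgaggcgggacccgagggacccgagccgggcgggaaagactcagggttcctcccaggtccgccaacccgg
Dkk1: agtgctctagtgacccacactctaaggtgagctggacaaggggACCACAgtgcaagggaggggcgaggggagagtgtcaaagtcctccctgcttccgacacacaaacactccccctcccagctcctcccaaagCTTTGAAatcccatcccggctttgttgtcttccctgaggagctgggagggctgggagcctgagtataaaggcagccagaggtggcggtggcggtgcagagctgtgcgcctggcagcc
The motif began 96 bases before the start in Ror1, 192 in Sfrp5 and 207 in Dkk1. The TCF/LEF motifs CTTTGAT or CTTTGAA, through which beta-catenin partners bind DNA, were in 3 member windows (Dkk1, Wnt11 and Wnt5b), 6.52%, against 8.65% of all windows. A match of letters is no evidence of binding. Ror1 and Sfrp5 are described with their classes below; Dkk1 had 0 counts in all 4 homozygote libraries, against 1, 0 and 14 counts in the heterozygote libraries.

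Libraries held 11184237 to 13986835 counts, of which these genes took 0.0492% to 0.0664% in homozygotes and 0.0472% to 0.0552% in heterozygotes. The targeted gene checked the labels: Runx3 had 90, 148, 81 and 143 counts in the homozygotes, against 862, 1088 and 1087 in the heterozygotes (log2 fold change -3.22 ± 0.30 SE; edgeR, adjusted p = 0.00593). The 13 measured sensory neuron markers, Ntrk3 and Isl1 among them, summed to 12107 to 21562 CPM in homozygotes, lowest in library 3, and 20872 to 23980 CPM in heterozygotes; CPM are counts relative to the scaled library size. Of these markers 11 of 13 had a negative fold change, while 48.3% of all tested genes had a positive one. Avil was called lower in homozygotes (log2 fold change -2.43, adjusted p = 0.0493, edgeR). Among the marker lists of other cells, the leukocyte sum alone did not overlap between genotypes. All 15 leukocyte markers had a positive fold change, and 0 were called by edgeR. At an unadjusted p below 0.05 (edgeR) there were 13 of the 15, against 12.6% of all tested genes. The leukocyte sum was 603 to 3862 CPM in homozygotes against 291 to 339 CPM in heterozygotes, highest in homozygote library 3. Coro1a alone gave 208, 226 and 283 CPM of the heterozygote sums and 247, 261, 621 and 317 CPM of the homozygote sums. Its log2 fold change was 0.60, against a median of 3.96 over the 15 markers. The 22 spinal cord markers summed to 41.4 to 133 CPM in homozygotes and 17 to 59.6 CPM in heterozygotes, with overlap. Pax3 alone gave 75.5, 58.4, 61.4 and 30.7 CPM of these sums in the homozygotes and 49.1, 29.8 and 16.8 CPM in the heterozygotes. Of the 22 markers, 5, the roof plate factor Lmx1a among them, had counts in homozygote libraries only. Olig1 and Gdf7 had 0 counts in every library. Lmx1a had 99, 2, 6 and 2 counts in the homozygotes, and the other 4 had at most 9 in any library. The sums of 18 mesenchyme markers (243 to 590 CPM against 248 to 438 CPM) and 9 neural crest and glial markers (1068 to 2111 CPM against 1600 to 2147 CPM) overlapped between homozygotes and heterozygotes, as did 10 endothelial (6.61 to 53.5 CPM against 5.07 to 10.5 CPM) and 11 muscle markers (3.5 to 229.8 CPM against 3.22 to 15 CPM). The part of these cells in the Wnt values was not tested. In sorted bulk RNA, fewer cells of a type and less RNA per cell cannot be told apart.

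**Figure D1:**
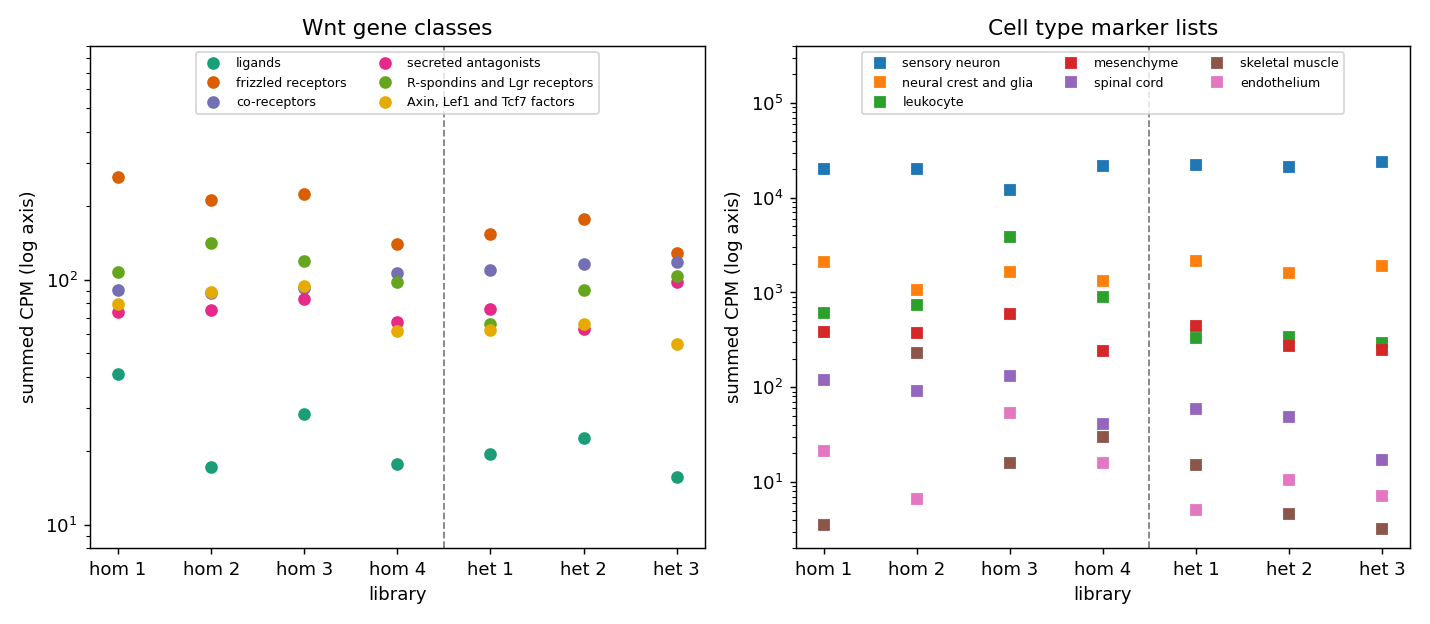
Summed CPM (log axis) in each library, with the 4 homozygote libraries left of the dashed line and the 3 heterozygote libraries right of it. Left, each dot is the sum over a class of Wnt genes, and the ligand class is the lowest at 15.6 to 41.0 CPM; right, each square is the sum over a list of cell type markers, with leukocyte markers at 3862 CPM in homozygote library 3.

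No Wnt gene passed the test between genotypes. Of the 56, 35 had enough counts to be tested and 0 were called at an adjusted p below 0.05 by edgeR's quasi-likelihood test; over all 14040 tested genes the share called was 0.0499%, with 0.0142% higher and 0.0356% lower in homozygotes. At an unadjusted p below 0.05 there were 6 of 35 (17.1%), 3 with a positive and 3 with a negative fold change, against 12.6% of all tested genes (7.75% higher and 4.88% lower). DESeq2 called 2 of the 35 (5.71%), Lgr5 as higher and Sfrp4 as lower in homozygotes, against 4.76% of all genes (3.45% higher and 1.31% lower). The same pair are the members listed in the authors' deposited table of 464 genes. Genotypes did not overlap in 8 of 35 members (22.9%), 3 of them higher and 5 lower in homozygotes, against 12.4% of all tested genes (6.6% higher and 5.78% lower). The fold change was positive in 20 of the 35 (57.1%), against 48.3% of all genes. The median log2 fold change of the 35 was 0.35, against -0.02 over all tested genes, and it was 0.14 without homozygote library 1 and 0.16 without homozygote library 3 and heterozygote library 3. The count at an unadjusted p below 0.05 was 3 without heterozygote library 3. The filter on low counts can keep a gene through the genotype in which it is high: 24 of the 35 were above it in at least 3 libraries of each genotype, Rspo3 was above it in no heterozygote library, and Fzd9 and Ror1 were above it in no homozygote library.

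**Figure D2:**
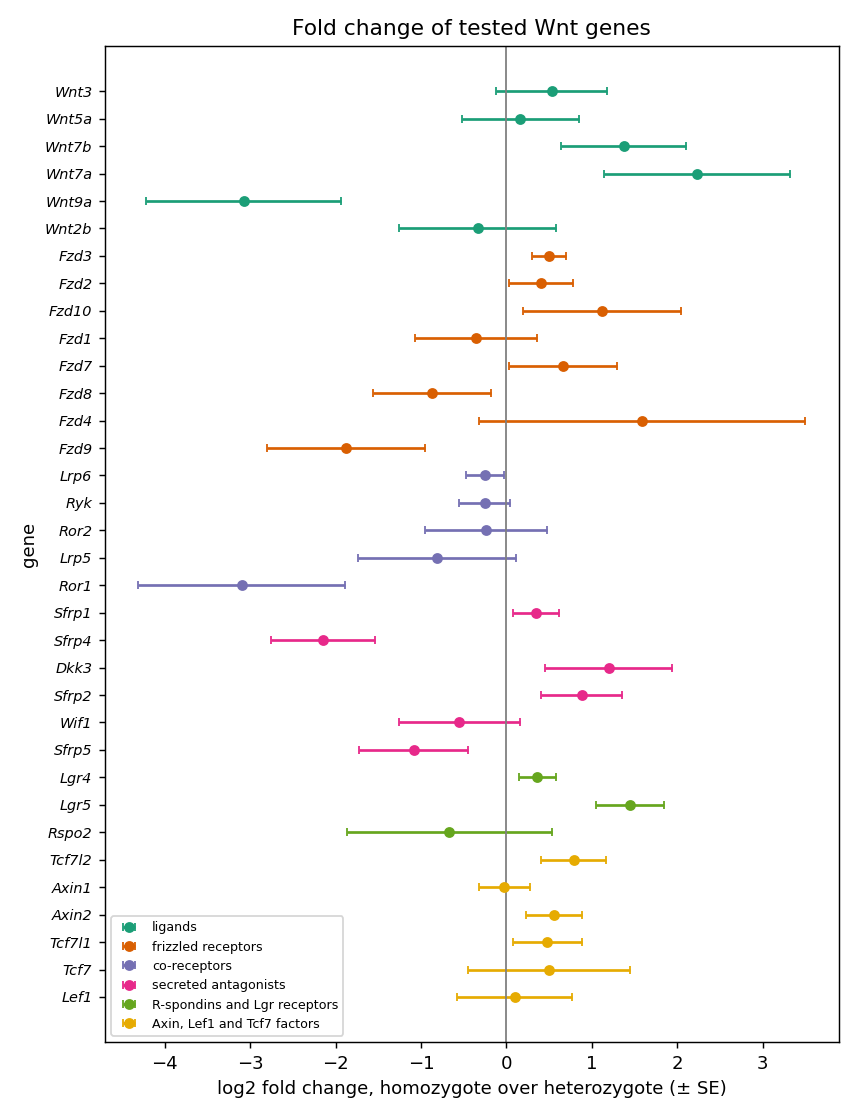
Log2 fold change (homozygote over heterozygote, ± SE, edgeR) of 34 tested Wnt genes, coloured by class and ordered by mean level within it; Rspo3 is left out because its heterozygote libraries hold 0 counts. Points to the left are lower in homozygotes: Wnt9a at -3.08 and Ror1 at -3.10 lie farthest left, and all 5 co-receptors lie left of 0.

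Wnt ligands were scarce in the sorted cells of both genotypes. Summed over all 19, they reached 41, 17.1, 28.3 and 17.6 CPM in homozygote libraries 1 to 4 and 19.3, 22.7 and 15.6 CPM in heterozygote libraries 1 to 3, so the genotypes overlapped. Wnt2, Wnt9b and Wnt10b had 0 counts in every library, and 10 more ligands had too few counts for a test. The 6 tested ligands were Wnt2b, Wnt3, Wnt5a, Wnt7a, Wnt7b and Wnt9a. None was called, and the genotypes did not overlap for Wnt7a and Wnt9a.

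Wnt7a and Wnt7b, closely related Wnts known from the neural tube, had higher mean levels in homozygotes but did not pass the test. Wnt7a had 39, 31, 86 and 22 counts in the homozygotes and 15, 12 and 0 in the heterozygotes. This was 3.5 ± 2.29 CPM against 0.736 ± 0.641 CPM (SD, n = 4 and 3), on the log2 scale a difference of 2.23 ± 1.09 (SE; edgeR, adjusted p = 0.445). All 4 homozygote libraries were above all heterozygote libraries, with homozygote library 3 far above the other homozygotes. Without homozygote library 3 and heterozygote library 3 the log2 fold change of Wnt7a was 1.10 (adjusted p = 0.898, edgeR). Wnt7b had 121, 50, 105 and 18 counts in the homozygotes and 35, 33 and 11 in the heterozygotes, with overlap (log2 fold change 1.37 ± 0.73 SE; edgeR, adjusted p = 0.502). The spinal cord marker sum, with Pax3 as its largest part, was likewise highest in homozygote libraries 1 and 3 (120 and 133 CPM). It was lower in homozygote libraries 2 and 4 (91.1 and 41.4 CPM). The part of spinal cord cells in these values was not tested.

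Wnt9a, a ligand known from joint formation in the mouse, had 17, 0, 2 and 3 counts in the homozygotes and 28, 32 and 67 in the heterozygotes. Its mean was 0.414 ± 0.561 CPM against 3.59 ± 1.96 CPM (SD, n = 4 and 3), on the log2 scale a difference of -3.08 ± 1.14 (SE; unadjusted p = 0.0226 and adjusted p = 0.289, edgeR). Every homozygote library was below every heterozygote library. In the RefSeq gene order Wnt9a neighbours Wnt3a, the dorsal neural tube Wnt, and the neighbours differed in direction. Wnt3a had 7, 21, 13 and 3 counts in homozygotes and 0, 2 and 1 in heterozygotes, a ratio of summed counts of 10.4 (95% exact interval 3.32 to 52.1, counting error only), too few for the test. The other neighbouring pairs among the ligands gave little: Wnt1 had 7, 9, 2 and 0 counts in homozygotes and 0, 14 and 0 in heterozygotes beside Wnt10b with none, and Wnt6 and Wnt10a had at most 7 counts in any library. Wnt3, the neighbour of the silent Wnt9b, had the highest level per kilobase among the ligands and was at 6.8 ± 4.13 CPM in homozygotes and 4.69 ± 2.44 CPM in heterozygotes (SD, n = 4 and 3; log2 fold change 0.53 ± 0.65 SE).

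Wnt5a, which signals through Ror receptors, had 152, 54, 29 and 25 counts in the homozygotes and 53, 73 and 32 in the heterozygotes. Its log2 fold change was 0.16 ± 0.68 (SE; edgeR, adjusted p = 0.959), and it was -0.59 without homozygote library 1, which held the highest value. Wnt2b was at -0.33 ± 0.92. Among the untested ligands, Wnt4 had 22, 2, 37 and 0 counts in homozygotes and 9, 3 and 7 in heterozygotes. Wnt11 had 6, 10, 0 and 13 counts in homozygotes and 0, 0 and 1 in heterozygotes, a ratio of 20.5 (95% exact interval 3.39 to 836, counting error only). Wnt5b rested on single libraries, with 27 counts in homozygote library 1 and 30 in heterozygote library 2, and 0 or 1 elsewhere. Wnt8a, Wnt8b and Wnt16 had 8, 3 and 1 counts in a single heterozygote library each and 0 in every homozygote library.

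**Figure D3:**
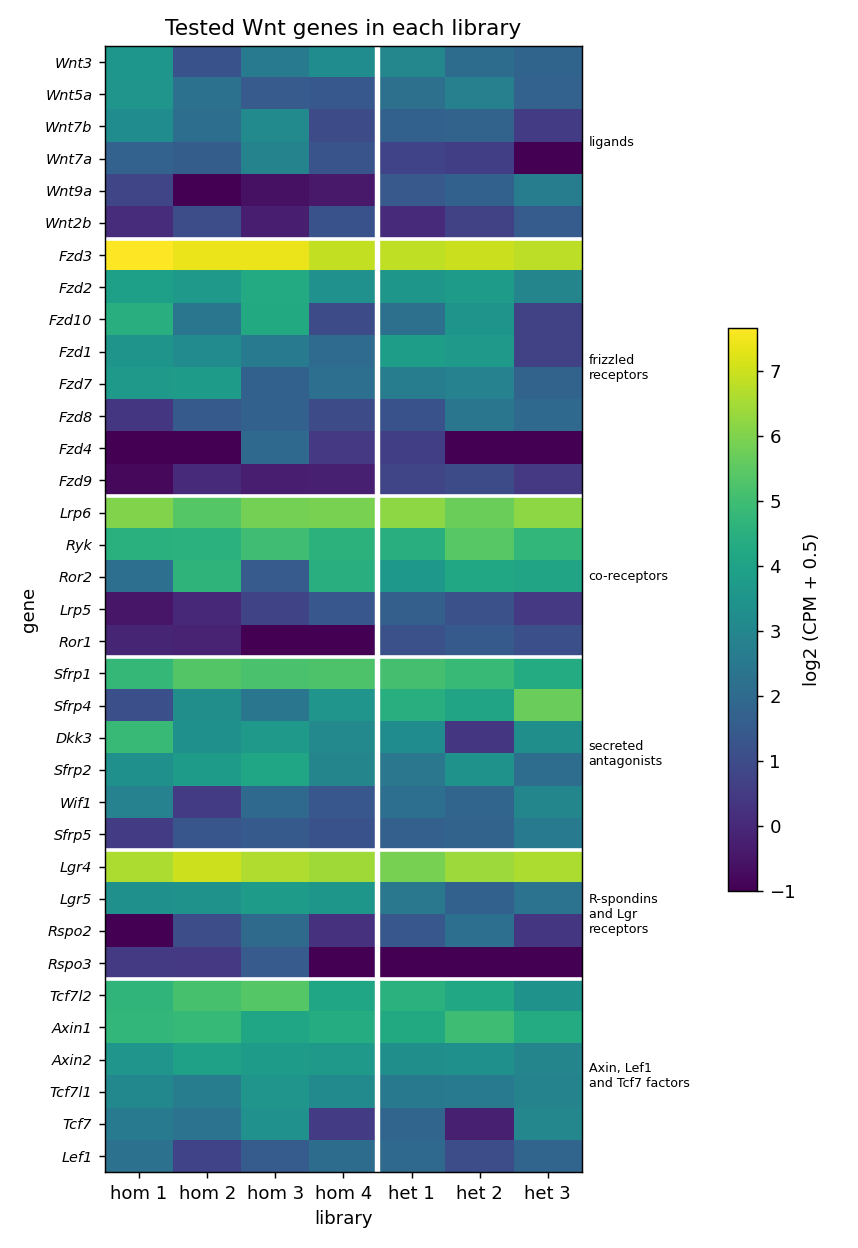
Level of the 35 tested Wnt genes, as log2 (CPM + 0.5), in each library; rows are genes grouped by class, homozygote libraries stand left of the white line and heterozygote libraries right of it. Fzd3, Lgr4 and Lrp6 are bright in every library, most ligands are dark, and Ror2 is darker in homozygote libraries 1 and 3 than in the other 5.

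Most frizzled counts came from Fzd3, a receptor known for its part in axon guidance. Fzd3 had 2779, 2178, 2120 and 1388 counts in the homozygotes and 1463, 1455 and 1278 in the heterozygotes. Its level was 165 ± 35.1 CPM in homozygotes and 117 ± 7.8 CPM in heterozygotes (SD, n = 4 and 3). Homozygote libraries 1 to 3 were above all heterozygotes, at 203, 169 and 170 CPM, and library 4, at 118 CPM, lay within the heterozygote range of 111 to 126 CPM. The log2 fold change of 0.50 ± 0.20 (SE; unadjusted p = 0.0308) did not pass (adjusted p = 0.33, edgeR). Of the class, 8 of 10 were tested, 5 with a positive and 3 with a negative fold change.

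Fzd10, known from the dorsal spinal cord, varied more among libraries than between genotypes. It had 291, 62, 234 and 18 counts in the homozygotes and 53, 124 and 13 in the heterozygotes (log2 fold change 1.12 ± 0.92 SE; edgeR, adjusted p = 0.699). Homozygote libraries 1 and 3 were the highest and library 4 was close to the lowest heterozygote. In the window of label dates that leaves out homozygote libraries 1 and 3, its log2 fold change was -0.74 (adjusted p = 0.902, edgeR). Fzd9 was low in both genotypes and did not overlap, with 1, 7, 4 and 4 counts in the homozygotes and 16, 17 and 10 in the heterozygotes (log2 fold change -1.88 ± 0.93 SE; edgeR, adjusted p = 0.452). Fzd2 was at 14 ± 4.01 CPM in homozygotes and 10.6 ± 3.09 CPM in heterozygotes (SD, n = 4 and 3), with overlap. Fzd1, Fzd7 and Fzd8 had log2 fold changes of -0.36, 0.66 and -0.87. Fzd4, the receptor of norrin, rested on homozygote library 3, with 0, 0, 42 and 10 counts in the homozygotes and 13, 0 and 0 in the heterozygotes. Fzd5 and Fzd6 had at most 13 counts in any library and were not tested.

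All 5 co-receptors had a negative fold change and none was called. Over all tested genes the fold change was positive in 48.3%. Ror1 was the only co-receptor whose genotypes did not overlap, and the signs of Ror2 and Ryk turned under other settings. Summed, they were at 91, 88.6, 92.5 and 106 CPM in the homozygotes and 109, 116 and 118 CPM in the heterozygotes, so the sums did not overlap. Lrp6, which gave most of the summed counts and binds Wnts beside a frizzled receptor, was at 64.1, 40.7, 57.5 and 59.5 CPM in homozygotes and 72.1, 52.4 and 73.2 CPM in heterozygotes, with overlap (log2 fold change -0.25 ± 0.22 SE; edgeR, adjusted p = 0.729). Its relative Lrp5 had 3 to 24 counts in homozygotes and 10 to 33 in heterozygotes (log2 fold change -0.81 ± 0.92 SE).

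Ror1, the receptor whose promoter window holds the Runt motif, was low and did not overlap between genotypes. It had 6, 5, 0 and 0 counts in the homozygotes and 22, 26 and 19 in the heterozygotes. The level was 0.207 ± 0.239 CPM against 1.87 ± 0.328 CPM (SD, n = 4 and 3), on the log2 scale a difference of -3.10 ± 1.21 (SE; unadjusted p = 0.0283 and adjusted p = 0.319, edgeR). Heterozygote libraries were close to each other, and homozygote libraries 3 and 4 had none. Ror1 passed the filter on low counts through the heterozygotes alone, so its p is no support for a difference. Ror2, the related receptor of Wnt5a, behaved otherwise, with 54, 312, 29 and 256 counts in the homozygotes and 153, 207 and 187 in the heterozygotes. Homozygote libraries 2 and 4 were above, and libraries 1 and 3 below, every heterozygote, so its log2 fold change of -0.24 ± 0.71 (adjusted p = 0.946, edgeR) summarises libraries that differ among themselves; it was 0.58 in the window of label dates that leaves out homozygote libraries 1 and 3. Ryk, a receptor of Wnts in axon guidance, was at 24.9 ± 4.37 CPM in homozygotes and 29.7 ± 10.8 CPM in heterozygotes (SD, n = 4 and 3), and its log2 fold change was -0.26 ± 0.29 (SE; edgeR, adjusted p = 0.81).

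Among the 6 tested secreted antagonists, Sfrp4 had the largest fold change. Sfrp4 encodes a secreted frizzled-related protein that binds Wnts and is known from human cortical bone. It had 23, 120, 59 and 130 counts in the homozygotes and 275, 187 and 587 in the heterozygotes. In CPM the homozygotes were at 1.68, 9.33, 4.73 and 11 and the heterozygotes at 21.4, 16.2 and 51, so every homozygote library was below every heterozygote library. The log2 fold change was -2.14 ± 0.61 (SE; unadjusted p = 0.00564 and adjusted p = 0.173, edgeR). DESeq2 called it (-2.13 ± 0.60 SE; adjusted p = 0.0146), and the authors' deposited table gives -1.68 with an adjusted p of 0.0214. With DESeq2 the call held in 6 of 7 fits that left out 1 library and ended without heterozygote library 3, its highest value (-1.48; adjusted p = 0.378, DESeq2). It also ended in the window of label dates (-1.52; adjusted p = 0.0994, DESeq2).

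The other tested antagonists had 3 positive and 2 negative fold changes. Sfrp1, which like Sfrp4 binds Wnts, was at 34.9 ± 5.81 CPM in homozygotes and 27.4 ± 7.26 CPM in heterozygotes (SD, n = 4 and 3), on the log2 scale a difference of 0.35 ± 0.27 (SE; edgeR, adjusted p = 0.669). Sfrp2 had a log2 fold change of 0.88 ± 0.47 (SE), and Dkk3, a divergent Dickkopf protein, was at 14.5 ± 9.2 CPM in homozygotes and 6.3 ± 4.79 CPM in heterozygotes (SD, n = 4 and 3). Dkk3 had 384, 125, 153 and 93 counts in homozygotes and 112, 9 and 108 in heterozygotes, so heterozygote library 2 held its lowest value. Sfrp5, the antagonist whose promoter window holds the Runt motif, had 13, 26, 28 and 21 counts in the homozygotes and 34, 33 and 65 in the heterozygotes. Its genotypes did not overlap, at a log2 fold change of -1.08 ± 0.64 (SE; edgeR, adjusted p = 0.548). Wif1 was at -0.55 ± 0.71 on the log2 scale. Of the untested antagonists, Dkk2 had 107 counts in homozygote library 3 and at most 8 in any other library, and Dkk4 had 1 count in each of a pair of libraries. Dkk1, whose heterozygote counts are given above, was 7.08-fold lower in homozygotes when set against a limit of 3 counts over the group. This fold takes the observed counts without error, and 14 of its 15 counts came from heterozygote library 3.

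Lgr5 had the smallest p of the 35 tested genes in the edgeR fit used throughout. Sfrp4 had a smaller p than Lgr5 by DESeq2 and limma-voom, and in edgeR fits without the filter or with another dispersion setting. Lgr5 encodes a receptor for R-spondins and marks stem cells of the intestine, where it is also a target of beta-catenin. It had 132, 130, 164 and 136 counts in the homozygotes and 64, 32 and 51 in the heterozygotes. The level was 11.1 ± 1.58 CPM in homozygotes and 4.06 ± 1.16 CPM in heterozygotes (SD, n = 4 and 3), and the lowest homozygote library (9.63 CPM) was above the highest heterozygote library (4.99 CPM). The log2 fold change was 1.45 ± 0.40 (SE; unadjusted p = 0.00474 and adjusted p = 0.164, edgeR). DESeq2 called it (1.47 ± 0.43 SE; adjusted p = 0.0221), and the authors' deposited table gives 1.34 with an adjusted p of 0.0037. Leaving out 1 library left the DESeq2 log2 fold change between 1.25 and 1.64, and the call held in 2 of the 7 fits, without homozygote library 1 and without heterozygote library 1, and adjusted p ran from 0.0393 to 0.148 (DESeq2). Both calls by DESeq2 ended without homozygote library 3 and heterozygote library 3, where Lgr5 was at 1.43 (adjusted p = 0.318, DESeq2) and Sfrp4 at -1.35 (adjusted p = 0.58, DESeq2).

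**Figure D4:**
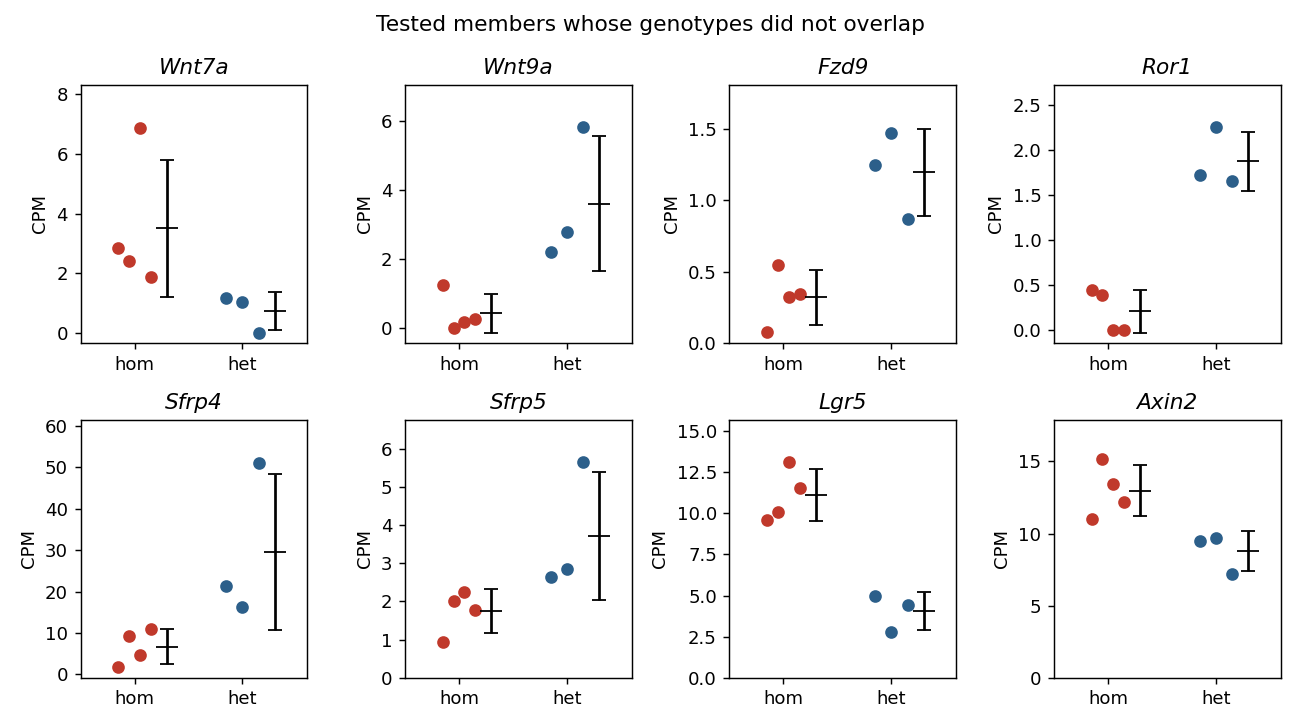
CPM of the 8 tested Wnt genes whose genotypes did not overlap, with homozygotes (hom, red, n = 4) left of heterozygotes (het, blue, n = 3) in each panel; dots are libraries, and black bars are the mean ± SD, each panel with its own linear axis. Lgr5 lies at 9.63 to 13.1 CPM in homozygotes against 2.77 to 4.99 CPM in heterozygotes, and Sfrp4 at 1.68 to 11 CPM against 16.2 to 51 CPM.

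Lgr4, the other R-spondin receptor of these cells, was at 96.3, 127, 99.7 and 85.8 CPM in the homozygotes and 58.6, 83.6 and 96.1 CPM in the heterozygotes. The genotypes overlapped, and the log2 fold change was 0.36 ± 0.22 (SE; edgeR, adjusted p = 0.557). Lgr6 had at most 5 counts in any library. The R-spondins themselves were near the lower limit of detection. Rspo3 had 12, 11, 29 and 0 counts in the homozygotes and 0 in all 3 heterozygote libraries (unadjusted p = 0.0149 and adjusted p = 0.244, edgeR). It passed the filter through the homozygotes alone, so its p is no support for a difference. Set against a limit of 3 counts over the heterozygote group, its summed counts were 12.2-fold higher. This fold takes the observed counts without error and leaves out the spread among libraries. Rspo4 had 0 counts in all homozygotes and 0, 7 and 23 counts in heterozygotes, 14.2-fold lower in homozygotes against the same limit. Rspo2 had 0, 20, 43 and 8 counts in homozygotes and 26, 46 and 9 in heterozygotes, and Rspo1 had 1, 21, 0 and 0 against 5, 0 and 7 counts.

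Of the Axin, Lef1 and Tcf7 factors, Axin2 alone did not overlap between genotypes. Axin2 restrains beta-catenin and is itself a widely used target gene of the pathway. It had 151, 195, 168 and 144 counts in the homozygotes and 122, 112 and 83 in the heterozygotes. This was 13 ± 1.78 CPM against 8.8 ± 1.38 CPM (SD, n = 4 and 3), on the log2 scale a difference of 0.56 ± 0.33 (SE; edgeR, adjusted p = 0.545). Its paralog Axin1 was at 22.7 ± 5.1 CPM in homozygotes and 23.1 ± 6.84 CPM in heterozygotes (SD, n = 4 and 3; log2 fold change -0.02 ± 0.30 SE). Tcf7l2, a nuclear partner of beta-catenin, was at 24.7, 34.8, 40.9 and 16.6 CPM in homozygotes and 22.5, 17.7 and 10.5 CPM in heterozygotes (log2 fold change 0.79 ± 0.38 SE; edgeR, adjusted p = 0.435), with homozygote library 4 inside the heterozygote range. Tcf7l1, Tcf7 and Lef1 were at 0.48 ± 0.40, 0.50 ± 0.95 and 0.10 ± 0.67 on the log2 scale.

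Levels were compared between genes per kilobase of exon, with exon lengths from GENCODE M21, which may differ from the gene models the authors counted. On this scale Lgr4 was highest, at 20.2 ± 3.45 CPM per kilobase in homozygotes and 15.7 ± 3.77 in heterozygotes, and Fzd3 followed at 12.9 ± 2.76 in homozygotes and 9.19 ± 0.612 in heterozygotes (SD, n = 4 and 3). Ryk was at 8.53 ± 1.5 in homozygotes and 10.2 ± 3.71 in heterozygotes, where its mean was above that of Fzd3. Sfrp1 (7.98 ± 1.33 in homozygotes against 6.26 ± 1.66 in heterozygotes), Lrp6 (5.92 ± 1.09 against 7.04 ± 1.25) and Axin1 (6.01 ± 1.35 against 6.11 ± 1.81) lay lower, and their order differed between genotypes. Sfrp4 was at 1.6 ± 1.02 CPM per kilobase in homozygotes and 7.07 ± 4.5 in heterozygotes, where it was level with Lrp6. Lgr5 was well below Lgr4 in both genotypes, at 2.35 ± 0.335 in homozygotes and 0.862 ± 0.245 in heterozygotes. No ligand was above Wnt3, at 2.21 ± 1.34 in homozygotes and 1.52 ± 0.794 in heterozygotes.

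The rest of the pathway was read from 99 other genes in 6 lists, of which 80 were tested. By edgeR 0 were called, 14 (17.5%) had an unadjusted p below 0.05, 10 higher and 4 lower, against 12.6% of all tested genes (7.75% higher and 4.88% lower). DESeq2 called 2 higher and 1 lower of the 80, against 4.76% of all tested genes. Their median log2 fold change was -0.03. Of 3 tested genes for Wnt secretion, Wls, the carrier of Wnts to the cell surface, was at 71.4 ± 40.2 CPM in homozygotes and 35.5 ± 6.89 CPM in heterozygotes (SD, n = 4 and 3; unadjusted p = 0.0414 and adjusted p = 0.369, edgeR); homozygote libraries 1 and 3, at 104 and 108 CPM, held the high values. Of 17 tested extracellular modulators, 2 (11.8%) had an unadjusted p below 0.05 (edgeR), against 12.6% of all tested genes. They were Ndp (norrin, a ligand of Fzd4) at 1.66 ± 0.67 and the glypican Gpc4 at 1.79 ± 0.72 on the log2 scale.

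In the list of the destruction complex and beta-catenin, 27 genes were tested, and 1 with a positive and 2 with a negative fold change had an unadjusted p below 0.05 (edgeR). This was 11.1%, against 12.6% of all tested genes. Tnks, tankyrase, which marks Axin proteins for degradation, was called lower by DESeq2 (adjusted p = 0.00184). It was at 127, 181, 137 and 201 CPM in homozygotes and 305, 259 and 464 CPM in heterozygotes, without overlap (log2 fold change -1.08 ± 0.24 SE; edgeR, adjusted p = 0.125). Dixdc1 had a log2 fold change of 0.58 ± 0.24 (SE), and Dvl1, a dishevelled protein that relays the receptor signal, was at 16.3 ± 7.53 CPM in homozygotes and 32.6 ± 14.4 CPM in heterozygotes (SD, n = 4 and 3). Ctnnb1, which encodes beta-catenin, was at 389 ± 60 CPM in homozygotes and 420 ± 124 CPM in heterozygotes (SD, n = 4 and 3; log2 fold change -0.11 ± 0.21 SE; edgeR, adjusted p = 0.899). Of 10 nuclear cofactors, 4 had a positive fold change, and the median log2 fold change was -0.30. Smarca4, the Brg1 chromatin remodeller, was called higher by DESeq2 (adjusted p = 0.0141). It was at 417 ± 83.1 CPM in homozygotes and 258 ± 23.5 CPM in heterozygotes (SD, n = 4 and 3; adjusted p = 0.157, edgeR). Crebbp, Ep300 and Pygo2, the next by p, were at -0.42, -0.52 and -0.45 on the log2 scale.

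Planar cell polarity genes, which orient cells and axons without beta-catenin, had 0 of 14 called by edgeR and 0 by DESeq2. At an unadjusted p below 0.05 (edgeR) there were 4 (28.6%), with 2 positive and 2 negative fold changes, against 12.6% of all tested genes. Vangl2 was at 17.6 ± 2.98 CPM in homozygotes and 10 ± 0.93 CPM in heterozygotes (SD, n = 4 and 3), and its paralog Vangl1 at 13 ± 2.09 CPM against 21.3 ± 4.49 CPM; neither overlapped between genotypes, and neither was called (adjusted p = 0.291 and 0.345, edgeR). Celsr2 was at 0.53 ± 0.22 and Celsr3 at -0.65 ± 0.20 on the log2 scale, and Celsr3 did not overlap between genotypes. Of 13 tested beta-catenin target genes, 9 had a positive fold change. At an unadjusted p below 0.05 (edgeR) there were 3 (23.1%), all higher in homozygotes, against 12.6% of all tested genes (7.75% higher). They were Ccnd1 and Ccnd2, which encode D-type cyclins, and Myc. Their log2 fold changes were 0.83 ± 0.29, 1.02 ± 0.33 and 1.08 ± 0.40. Jag1, the next by p, was at -0.51 ± 0.27 on the log2 scale. DESeq2 called Ccnd2 (adjusted p = 0.0249), which was at 675, 440, 727 and 316 CPM in homozygotes and 360, 272 and 168 CPM in heterozygotes. Ccnd1, Ccnd2 and Myc are also general growth genes. Ccnd1 did not overlap between genotypes, while Ccnd2 and Myc did. The leukocyte marker sum given above did not overlap, and its part here was not tested.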

How the data were processed

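The authors deposited the raw read count per gene and library, with a log2 fold change and an adjusted p-value from their own comparison, per the file headers. The submitters' processing notes name TopHat 1.4.0, HTSeq, DESeq2 1.2.8 and mm9 with no role for each. Not given in the sources used here are the annotation and the strand setting, so reads of a gene and an antisense partner cannot be told apart. Libraries were made from amplified cDNA. Of 29777 genes, 10416 had 0 counts in every library.

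Genes were kept by filterByExpr (minimum count 10, minimum total 15), which left 14040. Scaling was by TMM and testing by edgeR 4.0.16 under R 4.3.3 (quasi-likelihood, two-sided, Benjamini-Hochberg over all tested genes, threshold 0.05). CPM use TMM-scaled library sizes, and SE is the log2 fold change over the square root of F. DESeq2 1.42.0 on the filtered genes, limma-voom (limma 3.58.1), other scalings, filters and dispersions, the label date, a window of dates and left-out libraries were alternatives. DESeq2 with left-out libraries was added after seeing the data. Steps were tested on simulated counts. All pairs of libraries within a genotype differed beyond sampling noise (chi-square divided by its degrees of freedom, 29.1 to 72). Intervals and floors cover counting error only. The authors' fold change is printed with its sign turned to homozygote over heterozygote.

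The members and lists were chosen with earlier results of these data known. Members named in full had an unadjusted p below 0.05, no overlap between genotypes, a DESeq2 call or a mean CPM among the 3 highest of their class; others are given briefly. Of other pathway genes, those with the smallest p per list and Ctnnb1 are named. Label dates come from the source names; the title of heterozygote library 1 gives another month.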

Additional observations from a re-analysis of the deposited data

Results flagged for a closer look

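In 4 sets of values, 1 homozygote library lay far from the other 3, by a gap that chance gives in about 1 of 20 groups. How many sets were looked at is not given, and such a rule flags some by chance alone. The 4 sets are thus not shown to be unusual. Ryk was at 31.4 CPM in homozygote library 3, against 22.3 to 23.1 CPM in the other homozygotes. The sensory neuron marker sum was 12107 CPM in homozygote library 3, and the leukocyte marker sum was 3862 CPM in the same library. The skeletal muscle marker sum was 229.8 CPM in homozygote library 2.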

How the results depend on the processing

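Of 24 named members, 17 kept the sign of their fold change under every setting that gave them a value, of 18 settings in all; Rspo3 had a value in 13 and Fzd9 in 17. The count of Wnt genes called was 0 with edgeR in every setting run and with limma-voom, and 2 with DESeq2 (Lgr5 and Sfrp4). DESeq2 called 0 to 3 when 1 library was left out, 0 without both libraries 3, and 1 (Wnt9a) in the date window. The third gene was Wnt9a without homozygote library 1, and Fzd3 and Rspo3 took the place of Lgr5 without homozygote library 4. The count at an unadjusted p below 0.05 was 3 in the date window, 2 when both libraries 3 were dropped and 3 to 8 over left-out libraries. The median log2 fold change was 0.15 with the date covariate, 0.0444 in the date window, 0.16 when both libraries 3 were dropped and 0.14 to 0.39 over left-out libraries. DESeq2 called 3 of the other pathway genes (Ccnd2, Smarca4 and Tnks), and edgeR and limma-voom called 0 in every setting run. Runx3 ran from -3.38 to -3.07 over left-out libraries; the edgeR call was lost when heterozygote library 2 (adjusted p = 0.0885) or heterozygote library 3 (adjusted p = 0.0576) was dropped.

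Signs turned for 7 named members, and the cause was not tested. Wnt5a was at -0.0535 with limma-voom and -0.48 in the date window, and ran from -0.59 to 0.51 over left-out libraries. Axin1 was at 0.0102 with the date covariate and 0.0444 in the window, and ran from -0.14 to 0.25. Ror2 was at 0.58 in the window and 0.16 with both libraries 3 dropped, and ran from -0.72 to 0.12. Fzd10 was at -0.74 in the window and Fzd2 at -0.00584 without both libraries 3. Rspo2 ran from -1.59 to 0.0123 and Ryk from -0.44 to 0.0722. No paired analysis was possible because the labels give no replicate numbers, only dates that differ between all libraries. The 18 members with some counts but no test limit what can be said of most ligands at this depth.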

Other observations

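Ror2 and Fzd10 ran opposite to each other over the homozygote libraries. Ror2 was at 3.94, 24.3, 2.32 and 21.7 CPM and Fzd10 at 21.2, 4.82, 18.7 and 1.53 CPM in homozygote libraries 1 to 4. Libraries 1 and 3 carry the earliest and the latest label dates of the series. Of the 35 tested Wnt genes, 9 had their highest CPM in homozygote library 3 and 10 their lowest in heterozygote library 3, while 0 had their highest in homozygote library 4. These counts were not made over all tested genes, so they are not shown to be particular to Wnt genes.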
